A study of Homo sapiens with 6 samples.

Results

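The 31 genes described here encode nucleoporins, the proteins that build the nuclear pore complex. They were taken by their GENCODE v29 symbols from a transcript count table of HCT116 cells, an established human colorectal carcinoma line. They account for 31 of the 18750 genes and 307 of the 98782 matched transcripts of that table. Control cells, called siRNA-NC here, had received a negative control siRNA (3 libraries), and knockdown cells had received an siRNA against the long noncoding RNA AC010789.1 (si-AC010789.1, 3 libraries). Both groups were HCT116 cells with no other genetic change named in the labels. The knockdown cells carried a single siRNA sequence, so its effects through AC010789.1 and through other transcripts cannot be told apart. The level of AC010789.1 itself was not analysed here. NUP50 had drawn attention to the list because it was among the genes with an adjusted p below 0.05 between the groups, so its own difference is given as a description.

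The nuclear pore complex is the gate through which proteins and RNA pass between nucleus and cytoplasm. Its symmetric core consists of outer rings made of the Y complex, an inner ring and a membrane ring that anchors it in the nuclear envelope. Proteins rich in phenylalanine-glycine repeats fill the central channel, filaments reach into the cytoplasm, and a basket reaches into the nucleus. NUP50 belongs to the basket and binds importin alpha, where it helps to release cargo after import.

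Libraries held between 11277222 and 13443866 counts, of which 99.897 to 99.931% fell on matched transcripts. Values are counts scaled to a common library size (CPM) after scaling by edgeR's trimmed mean factors unless a per-length level (TPM, in which counts are divided by transcript length before that scaling) is named. All 31 genes passed the filter on low counts, with 13750 genes tested in all. The epithelial keratins KRT8 and KRT18 were abundant, and the summed level of the 4 matched markers of 7 epithelial markers was 984 to 1230 CPM in siRNA-NC cells, against 801 to 1040 CPM in si-AC010789.1. EPCAM stood between 35 and 68 counts, or 3.1 to 5.59 CPM, LGALS4 between 0 and 3 counts, and KRT19, CDX2 and VIL1 were not matched. The epithelial sum thus rested almost wholly on KRT8 and KRT18. The summed level of leukocyte markers (1 of 3 matched) was at most 1.13 CPM and that of endothelial markers (2 of 3 matched) at most 2.51 CPM, whereas 3 matched fibroblast markers of 4 summed to 55.7 to 66.0 CPM in control and 61.3 to 66.8 CPM in knockdown libraries. Their part in the values below was not tested. In bulk RNA, fewer cells making a transcript and less of it per cell cannot be told apart. The labels do not say that replicates came from separate cultures, while the study's discussion speaks of biological repeats and offers cells of unlike passage as a possible source of their spread. The p-values set group differences against the spread between libraries, estimated with information shared across genes, whatever its source. If libraries came from the same culture, variation between cultures is not covered.

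NUP50 (ENSG00000093000.18) lies on the plus strand of chromosome 22, at chr22:45163841-45188015 of GRCh38. Its transcripts differ in an extra exon of 190 bases at chr22:45170988-45171177, which NUP50-201 skips and 6 other listed transcripts carry. The sequences below, read from GRCh38 with GENCODE v29 exons and the plus strand, show what separates the forms. In both junctions the first 12 bases end the exon at chr22:45168235-45168246, and the capitals mark the first 12 bases of the exon that follows, at chr22:45171600-45171611 in NUP50-201 and at chr22:45170988-45170999 in NUP50-210. The capitals of the stop sequence, chr22:45170988-45171011, mark the annotated stop codon of NUP50-210 inside the extra exon. Those of the start sequence, chr22:45171600-45171626, mark the annotated start codon of NUP50-203, which lies past the extra exon, whereas the start codon of NUP50-201 lies ahead of it at chr22:45168178-45168180.
NUP50-201 junction: gaagctgaagagGTGGGAACATTC
NUP50-210 junction: gaagctgaagagGGTAAAAGAAGG
NUP50-210 stop: ggtaaaagaagggctataaacTAA
NUP50-203 start: gtgggaacattctccATGgccagtgag

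The NUP50 promoter was also searched for short motifs, together with those of the other members, in RefSeq windows of 250 bases before to 50 after a start (GRCh38.p14). The 28 of the 31 genes found there had 36 windows, since 7 genes had more than 1 start, and NUP43, AHCTF1 and GLE1 had no entry. A gene was counted once if any of its windows held the motif, for members and for all other genes. The ETS core CCGGAAG, read on both strands, stood in 13 members (46.4%), against 22.6% of the 9873 tested genes with a window and 12.2% of all 27305 genes with one. The NRF1 core (GCGCA, any base, then GCGC) was found in 4 members (14.3%), which were NUP107, NUP214, NUP50 and NUP62, against 13.5% of tested and 6.98% of all genes. CCAAT, the NF-Y core, stood in 35.7% of members and 43.5% of tested genes. The matches describe letters in these windows only. NUP50 held the ETS core 8 bases ahead of its RefSeq start, within chr22:45163909-45163931, and 1 of its 4 NRF1 matches lay within chr22:45163861-45163886. These ranges, and those of NUP214 below, include the 8 bases printed on each side of the motif. Both NUP50 ranges lie past the GENCODE start of the gene at chr22:45163841. Capitals mark the motif in the lines that follow, which show the plus strand, and NUP214, the other member with both an ETS and an NRF1 match among those with an unadjusted p below 0.05, is shown beside it (chr9:131125499-131125521 and chr9:131125433-131125458, plus strand).
NUP50 ETS core: tgctactgCCGGAAGcgccggcg
NUP50 NRF1 core: ggagctggGCGCATGCGCcgcgtaag
NUP214 ETS core: agcggcggCCGGAAGaacgcgcg
NUP214 NRF1 core: catccaggGCGCAGGCGCagggacct

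Among the 31 genes, NUP50 was the only one with an adjusted p below 0.05 between si-AC010789.1 and siRNA-NC (edgeR's quasi-likelihood test, Benjamini-Hochberg adjustment over all genes), where 0.982% of all genes tested had such a value and 0.698% had it with a lower level in knockdown cells. As NUP50 was known to have it, nothing is read from that count. The log2 difference was above 0 in 22 members (71.0%) and below 0 in 9, beside 49.9% of all genes above 0. Their median was 0.0645 on the log2 scale, beside -0.000662 for all genes. An unadjusted p below 0.05 was found for 8 members (25.8%, 5 higher and 3 lower), against 17.2% of all genes (8.25% higher and 8.92% lower). The libraries of the groups did not overlap in 11 members (35.5%, 7 higher and 4 lower), against 25.1% of all genes (12.2% higher and 12.9% lower). Differences were small for most: 24 of the 31 members lay under 0.2 in absolute log2 value, as did 63.1% of all genes. The spread within a group was small as well, with a median SD of 0.0777 on the log2 scale beside 0.15 for all genes. The filter let in genes with counts near 10, whereas NUP35, the member with fewest counts, held 113 to 151 per library. No comparison with genes of like level was made, for this spread or for the shares above. Of the 30 members other than NUP50, 0 had an adjusted p below 0.05 by edgeR, 7 had an unadjusted p below 0.05, and 3 (TPR, NUP214 and NDC1) had an adjusted p below 0.05 by DESeq2, where 3.78% of all genes did. An exact permutation test of 3 against 3 libraries cannot give a p below 0.1, so it is not given gene by gene.

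**Figure D1:**
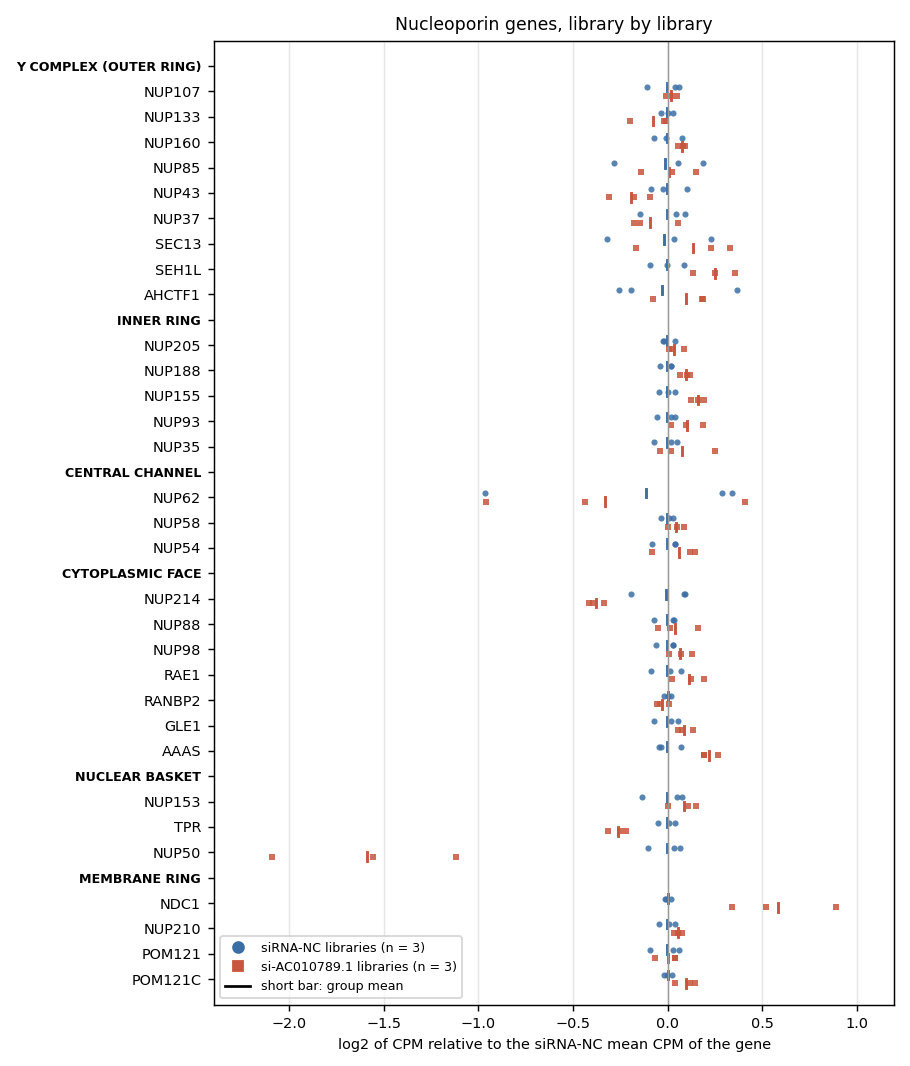
Each point is 1 library, drawn as the log2 of its CPM over the mean CPM of the siRNA-NC libraries of that gene, with genes grouped by their place in the pore, circles for siRNA-NC, squares for si-AC010789.1 and a short bar at the mean of the log2 values. NUP50 stands to the left of all other genes, TPR and NUP214 lie left of their controls, NDC1 lies to the right, and the points of NUP62 are spread over more than 2-fold within each group.

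In the nuclear basket, NUP50 was measured at 126, 112 and 123 CPM in the siRNA-NC libraries and at 55.4, 28.2 and 40.9 CPM in the si-AC010789.1 libraries. Every si-AC010789.1 library lay below every siRNA-NC library. Mean levels were 120 ± 7.19 and 41.5 ± 13.6 CPM (SD, n = 3 each), so the knockdown cells held 34.4% of the control level, a log2 difference of -1.54 (SE 0.228). The adjusted p of edgeR that had drawn attention to the gene, 0.0443, lay just inside the threshold, and TPR, at 0.0639, was the member just outside. Leaving out 1 library at a time kept the log2 difference between -1.80 and -1.32, but the adjusted p of edgeR stayed below 0.05 only without si-AC010789.1 replicate 1 (0.0353) and was 0.0642 to 0.145 without any 1 of the other 5 libraries. Without the filter on low counts it was 0.0727 by edgeR, and with the replicate number as a block it was 0.126. No exon of NUP50 overlapped an exon of another annotated gene.

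TPR, the long coiled-coil protein that forms the basket's filaments, stood at 738, 755 and 708 CPM in siRNA-NC cells, against 629, 589 and 616 CPM in si-AC010789.1. The groups did not overlap, and all 3 knockdown libraries were the lower ones. The means were 734 ± 23.6 and 611 ± 20.4 CPM (SD, n = 3 each). The log2 difference was -0.26 (SE 0.0452), with an adjusted p of 0.0639 by edgeR and 0.00282 by DESeq2. TPR shares exon bases with PRG4 on the other strand. NUP153, which anchors the basket to the pore, differed by 0.09 (SE 0.0706) on the log2 scale with an adjusted p of 0.573 by edgeR.

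Per length, the basket proteins summed to 340, 312 and 289 TPM in control and to 270, 267 and 269 TPM in knockdown libraries, without overlap. The sum includes NUP50, which was chosen for its own difference, so this gap is no separate evidence about the basket. TPR gave the largest part of the sum, at 175 ± 21.3 and 145 ± 3.81 TPM, whereas NUP153 stood at 71.0 and 76.0 TPM (means, n = 3 each). NUP50 was measured at 66.3, 67.6 and 67.6 TPM in siRNA-NC cells, against 50.3, 42.1 and 49.0 TPM in si-AC010789.1. Its TPM in knockdown cells was therefore 70.1% of the control level, a smaller difference than the 34.4% in CPM. When all NUP50 counts were divided by the longest transcript instead, 34.5% remained. The scales part because NUP50-201 is the longest transcript of the gene and made up less of its counts in knockdown cells, and counts on shorter transcripts weigh more per length.

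NUP50-201 (ENST00000347635, 5233 bases in 8 exons, protein coding) carried most NUP50 counts in control cells. It held 1286, 1307 and 1451 counts in control and 423, 138 and 263 counts in knockdown libraries. All knockdown libraries were below all controls, at 107 ± 7.86 against 23.1 ± 13.1 CPM (SD, n = 3 each). The log2 difference was -2.22 (SE 0.45), with an adjusted p over 44319 transcripts of 0.40 by edgeR and 0.00206 by DESeq2. These counts are part of the gene sum that chose NUP50 and are no separate evidence of its difference. The last exon of NUP50-201, at chr22:45184453-45188015, is 3563 bases long, and apart from NUP50-214 no other listed NUP50 transcript ends past chr22:45184830.

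The sum of the 13 other NUP50 transcripts was higher in knockdown cells. The 13 held 136, 183 and 189 counts in siRNA-NC cells, against 211, 215 and 242 counts in si-AC010789.1, or 13.3 ± 1.13 and 18.4 ± 1.21 CPM (SD, n = 3 each). Every knockdown library lay above every control library, at a ratio of the means of 1.38. The 6 transcripts with the extra exon stood at 87, 136 and 126 counts against 157, 113 and 157 counts, so here the groups overlapped. NUP50-210, annotated as a target of nonsense-mediated decay with its stop codon in the extra exon, made up most of these with 62, 124 and 100 counts in control and 114, 71 and 151 in knockdown libraries. NUP50-201 thereby held 90.4, 87.7 and 88.5% of the gene's counts in siRNA-NC but 66.7, 39.1 and 52.1% in si-AC010789.1. The share was lower by 36.2 percentage points (88.9 ± 1.4 against 52.6 ± 13.8%, SD, n = 3 each), and between 29.5 and 43.3 points when 1 library was left out. Of 11587 tested genes with at least 2 listed transcripts, 96.5% showed a smaller difference in the share of their leading transcript. The share rests on the same counts that chose NUP50, so it and its rank are no separate evidence.

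**Figure D2:**
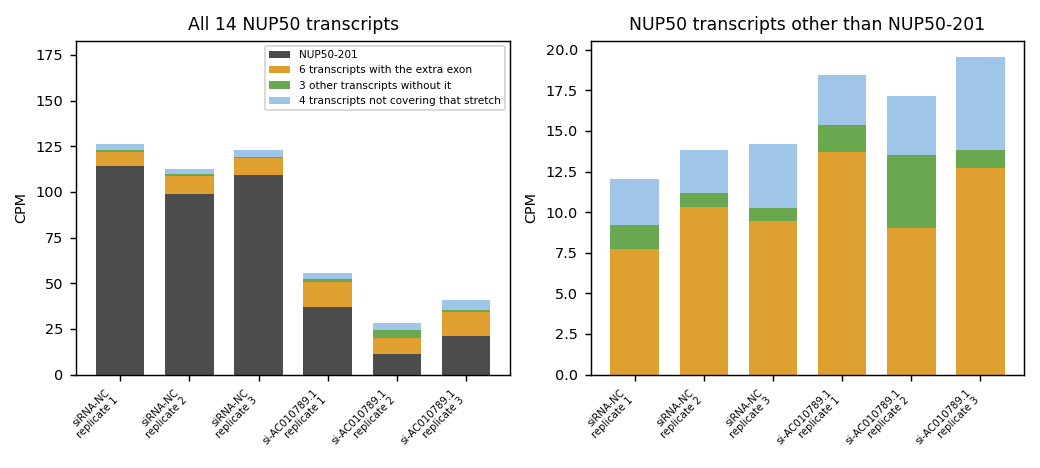
Stacked bars give the CPM of NUP50 transcripts in each of the 6 libraries, for all 14 transcripts on the left and without NUP50-201 on the right, where the axis is shorter. The dark NUP50-201 part is 98.6 to 114 CPM high in siRNA-NC and 11.0 to 36.9 CPM high in si-AC010789.1, while the other 13 transcripts sum to 12.1 to 14.2 CPM and 17.2 to 19.6 CPM.

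On the cytoplasmic face, NUP214, a repeat protein of the filaments with a role in RNA export, gave 234, 284 and 285 CPM in siRNA-NC cells, against 212, 204 and 201 CPM in si-AC010789.1. The knockdown libraries were all below the controls and lay closer together. The means were 268 ± 28.9 and 205 ± 5.88 CPM (SD, n = 3 each), a log2 difference of -0.38 (SE 0.0825) with an adjusted p of 0.0982 by edgeR and 0.00981 by DESeq2. Its full-length coding transcripts NUP214-201 and NUP214-202 summed to 195 ± 20.0 and 171 ± 31.1 CPM, and the remaining transcripts of the gene to 72.9 ± 23.9 and 34.9 ± 36.8 CPM. These remaining transcripts overlapped between groups, at 52.5, 99.2 and 66.9 CPM in control and 77.3, 14.4 and 12.9 CPM in knockdown libraries. Among them, NUP214-203 held 679 counts in si-AC010789.1 replicate 1 and 0 or 1 in every other library. NUP214-226, a coding transcript of 1775 bases at chr9:131190139-131198648, held 122, 598 and 697 counts in control and 88, 33 and 59 in knockdown libraries (adjusted p 0.621 by edgeR and 0.015 by DESeq2). NUP214-206, of 620 bases, held 23, 33 and 28 counts against 11, 13 and 13 (adjusted p 0.59 by edgeR and 0.215 by DESeq2). NUP214 shares exon bases with AL157938.2 and AL157938.3 on the other strand.

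AAAS, which encodes the scaffold protein ALADIN, stood at 32.5, 32.3 and 35.0 CPM in siRNA-NC cells, against 38.0, 40.1 and 38.0 CPM in si-AC010789.1. The knockdown libraries were the higher ones, with a log2 difference of 0.22 (SE 0.0721, adjusted p 0.209 by edgeR). AAAS-220, its transcript with most counts, is annotated as retaining an intron. It held 37, 22 and 180 counts in control and 172, 198 and 173 in knockdown libraries. In TPM the AAAS groups overlapped, at 53.1, 46.6 and 48.3 against 48.6, 54.8 and 55.1. GLE1, which stimulates the helicase that strips proteins from exported mRNA, gave 110, 120 and 117 CPM against 127, 122 and 120 CPM. Its groups lay apart by a gap smaller than the spread within them, at 0.08 (SE 0.0528, adjusted p 0.471 by edgeR). The other genes of this side lay close to 0: RANBP2, a SUMO ligase of the filaments, at 608, 602 and 593 CPM against 604, 584 and 578 CPM, varied less within groups than all but 1.16% of genes, though near copies of RANBP2 in the genome make its count uncertain. NUP88, NUP98 and its partner RAE1 differed by 0.04, 0.07 and 0.11 on the log2 scale.

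In the membrane ring, NDC1, a transmembrane protein needed to assemble pores in the envelope, was measured at 73.4, 74.7 and 73.2 CPM in control and at 93.3, 106 and 137 CPM in knockdown libraries. The controls were nearly equal and all knockdown libraries lay above them. The means were 73.8 ± 0.825 and 112 ± 22.3 CPM (SD, n = 3 each), and the log2 difference of 0.60 (SE 0.137) was the highest of the 31 members, with an adjusted p of 0.108 by edgeR and 0.00483 by DESeq2. In TPM, NDC1 stood at 29.1, 28.5 and 32.3 against 36.8, 40.0 and 51.8. POM121C gave 102, 101 and 104 CPM against 111, 105 and 113 CPM (log2 difference 0.09, adjusted p 0.402 by edgeR), and the log2 difference of its near-identical copy POM121 rounded to 0. Reads of this pair may be split between the copies, so their values are uncertain. In TPM the POM121C groups overlapped, at 45.2, 51.4 and 41.5 against 44.1, 46.4 and 48.6. NUP210, the glycoprotein of the ring, differed by 0.06 (SE 0.0397).

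The inner ring joins the membrane to the channel, and all 5 of its genes had a log2 difference above 0, with a median of 0.0985 and a range of 0.04 to 0.16. NUP155, which contacts both membrane and channel parts, gave 379, 389 and 366 CPM in siRNA-NC cells, against 432, 422 and 412 CPM in si-AC010789.1. The knockdown libraries were the higher ones (log2 difference 0.16, SE 0.0426, adjusted p 0.145 by edgeR). NUP188, a large scaffold protein, gave 369, 369 and 355 CPM against 391, 396 and 382 CPM, again without overlap (0.10, SE 0.0391, adjusted p 0.27 by edgeR). NUP205, its relative, and NUP93, their linker, differed by 0.04 and 0.10. None of the 5 passed the adjusted threshold by edgeR or DESeq2. Per length, the ring summed to 476, 461 and 461 TPM in control and 503, 498 and 498 TPM in knockdown libraries.

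Of the Y complex, SEH1L, which also serves in a nutrient-sensing complex at the lysosome, gave 74.2, 69.7 and 79.0 CPM in siRNA-NC cells, against 88.5, 95.3 and 81.6 CPM in si-AC010789.1. The groups did not overlap, with a log2 difference of 0.25 (SE 0.0809, adjusted p 0.197 by edgeR). SEH1L-208, its transcript with most counts, is annotated as retaining an intron. It held 25.9, 34.5 and 34.1% of the counts in control and 27.3, 57.8 and 22.2% in knockdown libraries. In TPM the SEH1L groups overlapped, at 88.4, 81.5 and 92.5 against 98.0, 95.7 and 90.3. NUP43, a propeller protein of the complex, gave 42.0, 48.0 and 44.0 CPM against 39.5, 41.9 and 36.0 CPM, the knockdown libraries being the lower ones by a narrow gap (-0.19, SE 0.0891, adjusted p 0.338 by edgeR). In TPM its groups overlapped as well, at 27.8, 28.3 and 26.6 against 25.5, 24.4 and 31.1. NUP43 shares exon bases with PCMT1 and SEH1L with AP002449.1, both on the other strand. The stem and arm proteins NUP107, NUP133, NUP160, NUP85 and NUP37 lay between -0.09 and 0.07, and SEC13, which also coats vesicles leaving the endoplasmic reticulum, was at 0.15 (SE 0.174).

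AHCTF1, also known as ELYS, brings the Y complex to chromatin when pores form after mitosis. Its gene sum hardly differed, at 264, 179 and 171 CPM in control and 194, 233 and 232 CPM in knockdown libraries (log2 difference 0.10, SE 0.176, adjusted p 0.819 by edgeR). Its transcripts did not follow the sum. AHCTF1-202, the coding form of 8751 bases, held 1111, 1373 and 1347 counts in siRNA-NC cells, against 1890, 2753 and 2731 in si-AC010789.1, with every knockdown library above every control. The means were 101 ± 2.53 and 202 ± 32.0 CPM (SD, n = 3 each), a log2 difference of 0.99 (SE 0.135) with an adjusted p of 0.184 by edgeR and 9.11e-05 by DESeq2. The 5 other transcripts together stood at 104 ± 53.8 CPM in control and 17.3 ± 10.1 CPM in knockdown libraries. The largest part of these counts lay on AHCTF1-205, a transcript without annotated coding sequence of 3451 bases, with 1559, 593 and 410 counts against 171, 80 and 83 (adjusted p 0.579 by edgeR and 0.0083 by DESeq2). The share of AHCTF1-202 was 37.3, 57.9 and 59.1% in siRNA-NC cells, against 85.1, 94.6 and 95.5% in si-AC010789.1, and 97.6% of genes showed a smaller difference in their leading share. As the shorter transcripts weigh more per length, AHCTF1 in TPM was 80.2 ± 31.9 in control and 60.1 in knockdown libraries (means, n = 3 each), opposite in sign to its CPM. AHCTF1 shares exon bases with KIF28P on the same strand.

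The leading transcript, that with most counts over the 6 libraries, was followed in all 31 members. Its share did not overlap between groups in 6 (3 higher, 3 lower), where 10.8% of the 11587 genes did the same (5.07% higher and 5.7% lower). The lower ones were NUP50-201, RAE1-209 (51.1 to 33.8% on average) and NUP133-201 (99.5 to 99.2%), and the higher ones were AHCTF1-202, NUP35-201 (52.8 to 73.0%) and NUP107-201 (56.0 to 61.7%). As NUP50 was chosen by the counts behind its share, nothing is read from its place among these. In 10 members the leading share was over 90% on average in both groups. Of the 307 member transcripts, 145 passed the filter, 0 had an adjusted p below 0.05 by edgeR, 15 (10.3%) had an unadjusted p below 0.05 and 5 had an adjusted p below 0.05 by DESeq2, where the shares over all transcripts tested were 0.0135%, 5.73% and 1.52%. NUP107-211, a coding transcript of 3004 bases, had 0 counts in each siRNA-NC library and 10, 57 and 29 counts in si-AC010789.1 (adjusted p 0.51 by edgeR and 0.000623 by DESeq2). Set against a floor of 3 counts per control library, its mean of 2.59 CPM was at least 10.8-fold higher, and at least 6.74-fold higher without si-AC010789.1 replicate 2. Such splits between transcripts carry more error than gene sums: 82 of the 145 tested (56.6%) varied over 2-fold between libraries of 1 group, as did 57.0% of all transcripts tested.

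**Figure D3:**
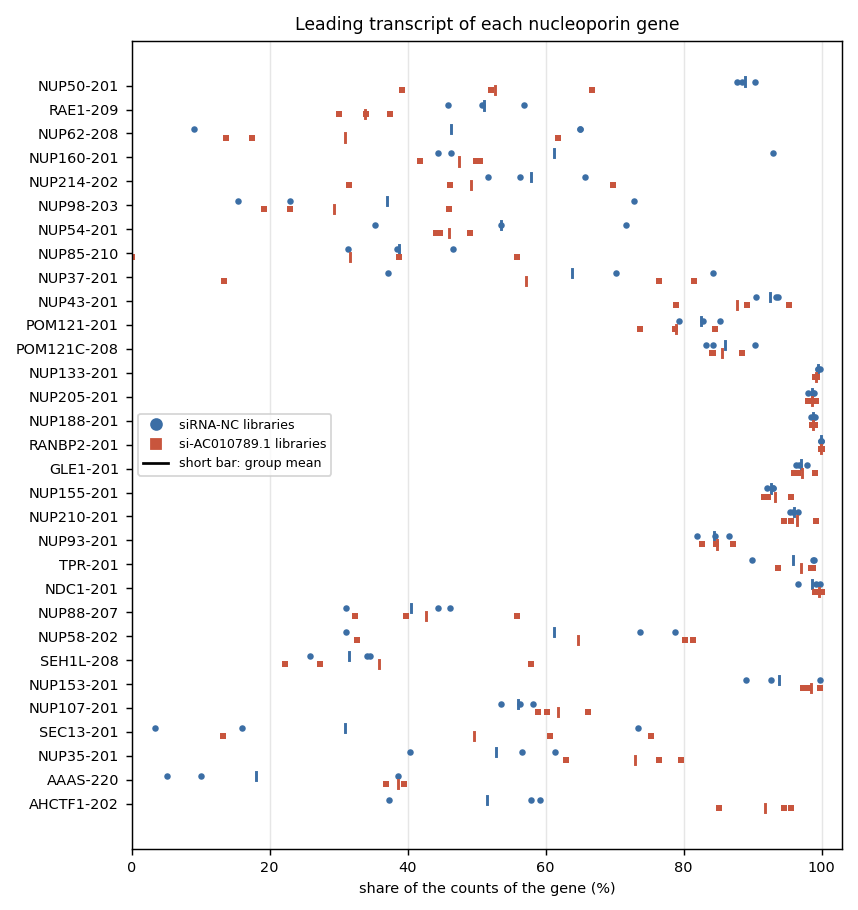
Points give the share (in %) of each gene's counts that its leading transcript held, with circles for the 3 siRNA-NC and squares for the 3 si-AC010789.1 libraries, a short bar at each mean, and genes ordered by the difference of the means. NUP50-201 (top) and AHCTF1-202 (bottom) are wholly apart between groups, whereas NUP62-208 and SEC13-201 range widely within each group.

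Of the channel proteins, NUP62, the best known of the repeat proteins, was the member that varied most. It stood at 95.5, 40.1 and 99.1 CPM in siRNA-NC cells, against 40.2, 57.8 and 104 CPM in si-AC010789.1, and each group held both low and high libraries. It was the only member over 2-fold apart within a group, as were 10.1% of all genes, and its within-group SD of 0.715 on the log2 scale exceeded that of 95.5% of genes. The variation lay in 1 transcript, NUP62-208, with 700, 48 and 858 counts in control and 80, 98 and 792 in knockdown libraries. The other NUP62 transcripts summed to 34.9 ± 1.5 and 40.9 ± 8.45 CPM (SD, n = 3 each). NUP62 shares exon bases with IL4I1 and AC011452.1 on the same strand and with ATF5 on the other. NUP58 and NUP54, the partners of NUP62 in the channel, differed by 0.05 (SE 0.0445) and 0.06 (SE 0.0892).

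Per-length levels showed how the members stand to each other. All 31 summed to 2880, 2711 and 2663 TPM in siRNA-NC cells, against 2770, 2758 and 2733 TPM in si-AC010789.1, so the summed level did not separate the groups. NUP160 had the highest control mean, at 226 ± 24.3 TPM, followed by NUP98 at 190 ± 21.3 TPM, and these neighbours overlapped: NUP160 was at 252, 204 and 222 TPM and NUP98 at 191, 168 and 210 TPM. The order depends on the length used: with each gene divided by its longest transcript, NUP160 still led at 244 TPM and NUP35 was still lowest at 9.06 TPM, but NUP98 stood at 94.9 TPM, below TPR at 190 TPM, and NUP93 and SEH1L both stood at 35.9 TPM. NUP35, a membrane-binding protein of the inner ring, was the lowest, at 11.1, 10.4 and 11.1 TPM in control and 11.5, 16.6 and 13.0 TPM in knockdown libraries, below all other members in every library. Next came NUP43 at 27.8, 28.3 and 26.6 TPM and NDC1 at 29.1, 28.5 and 32.3 TPM in siRNA-NC. In the channel, NUP54 had the lowest mean in siRNA-NC, at 48.1, 43.6 and 41.3 TPM, and NUP58 was highest at 83.9, 109 and 87.6 TPM. NUP62 fell below NUP54 in siRNA-NC replicate 2, at 28.6 TPM. NUP188 led the inner ring at 143, 136 and 130 TPM, and NUP210 led the membrane ring at 146, 152 and 148 TPM. AAAS was lowest on the cytoplasmic face at 53.1, 46.6 and 48.3 TPM. The membrane ring summed to 266, 282 and 271 TPM in siRNA-NC cells, against 285, 289 and 302 TPM in si-AC010789.1, while the sums of the Y complex, the channel and the cytoplasmic face overlapped between groups.

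**Figure D4:**
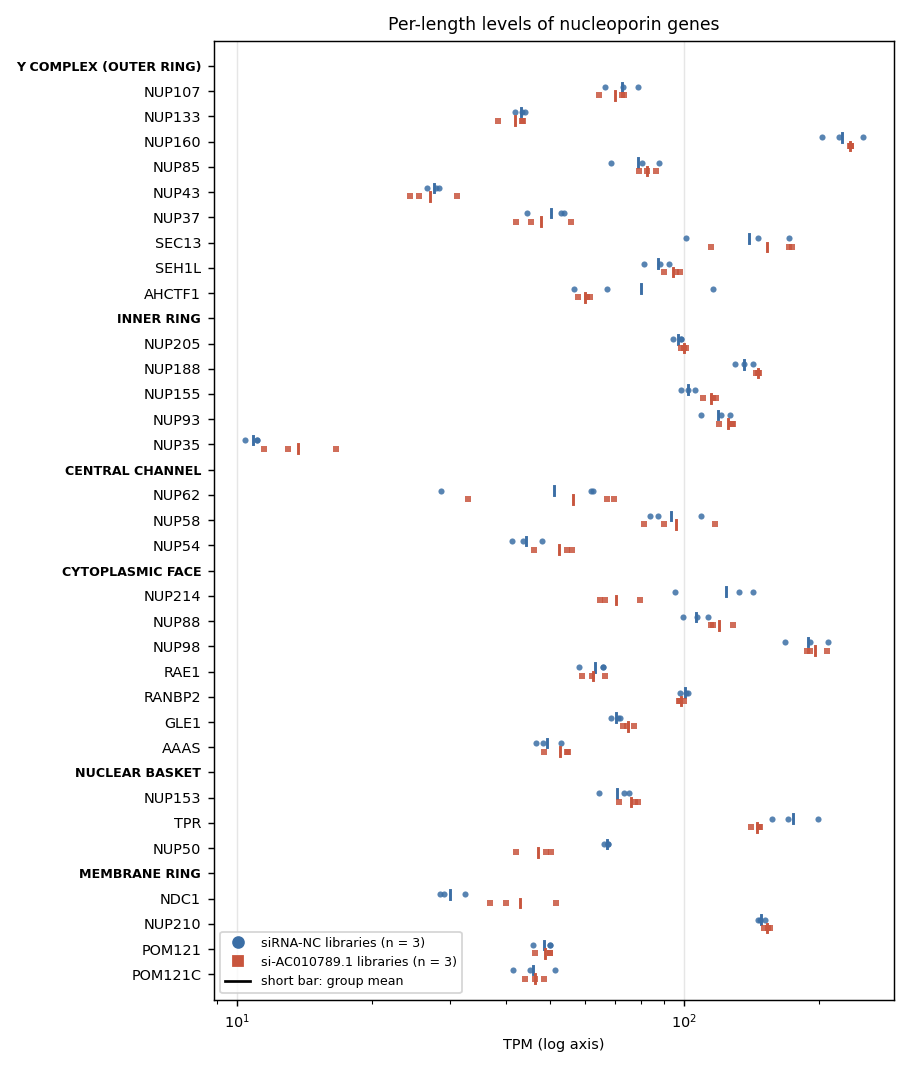
TPM of each member on a log axis, 1 point per library (circles siRNA-NC, squares si-AC010789.1) with a short bar at each group's mean. Levels span from about NUP35 at 10.4 to 16.6 TPM up to NUP160 at 204 to 252 TPM, and the groups lie apart for NUP50, TPR, NUP214 and NDC1 among others.

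Genes of the transport factors that use the pore were compared in the same way. Of 48 listed and tested genes for importins, exportins, the Ran system, mRNA export and further pore proteins, 33 (68.8%) had a log2 difference above 0 and 15 below, beside 49.9% of all genes above 0, and their median was 0.058 beside -0.000662 for all genes. By edgeR 0 had an adjusted p below 0.05, 10 (20.8%) had an unadjusted p below 0.05 against 17.2% of all genes, and 2 had an adjusted p below 0.05 by DESeq2, where 3.78% of all genes did, so the list is not set apart by that count. The 2 were CSE1L, the exportin that returns importin alpha to the cytoplasm, and RANGAP1, which makes Ran hydrolyse GTP. CSE1L stood at 412, 430 and 371 CPM in control and 504, 491 and 470 CPM in knockdown libraries (log2 difference 0.27, SE 0.064, adjusted p 0.113 by edgeR and 0.0294 by DESeq2). RANGAP1 stood at 143, 132 and 136 CPM against 164, 165 and 159 CPM (0.25, SE 0.0495, adjusted p 0.0821 by edgeR and 0.0159 by DESeq2). In both genes every knockdown library was above every control library. The other 8 with an unadjusted p below 0.05 were the import receptors KPNB1 (0.26), IPO9 (0.18), TNPO1 (0.15), TNPO2 (0.15), IPO5 (-0.14) and IPO4 (-0.84) and the exportins XPO7 (0.11) and XPO6 (-0.30), with log2 differences in parentheses. Of these 8, only IPO4 and KPNB1 overlapped between groups. IPO4 stood at 49.5, 29.9 and 44.7 CPM in control and 15.3, 32.6 and 21.5 CPM in knockdown libraries. KPNB1 stood at 592, 673 and 715 CPM against 701, 818 and 850 CPM. None of the 13 mRNA export genes had an unadjusted p below 0.05 by edgeR, and the log2 differences of these genes ran from -0.18 to 0.19.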

How the data were processed

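RNA of HCT116 cells was sequenced as paired-end TruSeq libraries, 3 per group. The table the authors deposited holds raw counts per transcript for the 6 libraries. The submitters' processing notes name CASAVA 1.8, TopHat2 2.0.6 and the builds mm10 and GRCh38, with no roles. The study's methods name Cuffdiff. The counting program, its annotation and its use of strand are not given in the sources used here, so an overlap on either strand may affect a count. Of the 31 members, 18 share exon bases with another annotated gene and 13 do not, and only some of the overlaps are named above. NUP188 shares them with AL672142.1 on the same strand and SH3GLB2 on the other. POM121C does so with AC211429.1 on the same strand and NSUN5P1 on the other, and GLE1 with AL356481.1 on the other. Of 98886 listed transcripts, 98782 matched GENCODE v29 (GRCh38) on the reference chromosomes and 104 did not. Each sums to at least 3 over the libraries.

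Transcript counts were summed per gene and tested with edgeR 4.0.16 (quasi-likelihood, trimmed mean factors, filterByExpr with a minimum count of 10) in R 4.3.3, adjusted by the Benjamini-Hochberg method over all 13750 genes or 44319 transcripts. DESeq2 1.42.0 was the main alternative. The fits were first tested on simulated counts in which chosen genes had known changes. TPM was computed by dividing each transcript's count by its annotated length. Floors of 3 counts cover counting error only. The members, gene lists and tests were chosen with earlier results of these data known. All 31 members are accounted for, and single values are given where a member had an unadjusted p below 0.05, its groups did not overlap, or it was highest or lowest of its subcomplex in TPM; transport genes are named for an unadjusted p below 0.05; transcripts are named for an unadjusted p below 0.01 or as the leading transcript. Other members with wide spread, and NUP214-201, were named after their values were seen.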

Additional observations from a re-analysis of the deposited data

How the results depend on the processing

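Against the main count of 135 genes with an adjusted p below 0.05, edgeR without a filter on low counts gave 69, DESeq2 520, and leaving out 1 library 12 to 37. The members among them numbered 1 in the main analysis, 4 by DESeq2, 0 without a filter (8 at an unadjusted p below 0.05) and 0 to 1 on leaving out 1 library. NUP50 kept its direction in all of these, at -1.55 (adjusted p 0.0727 by edgeR) without a filter. Members with an unadjusted p below 0.05 numbered 5 to 8 on leaving out 1 library, with 5 when replicate 2 of either group was left out. The median log2 difference of the 31 members was 0.0822 with upper-quartile factors, where that of all genes rose as well, to 0.0169. On leaving out 1 library it was 0.0291 to 0.0757 for the members and -0.0043 to 0.00255 for all genes. At the transcript level the 6 main calls became 675 by DESeq2 and 0 without a filter (4434 at an unadjusted p below 0.05 by edgeR), and 0 to 6 on leaving out 1 library, and member transcripts with an adjusted p below 0.05 numbered 5 by DESeq2 and 0 by edgeR in every fit (9 to 20 at an unadjusted p below 0.05). The share of NUP50-201 differed by -43.3 to -29.5 points on leaving out 1 library. The summed TPM of the members in siRNA-NC was 2498 when each gene was divided by its longest transcript. AHCTF1 turned to -0.02 without siRNA-NC replicate 3 (range -0.02 to 0.33) and NUP62 to 0.05 without si-AC010789.1 replicate 1 (range -0.68 to 0.05). The cause of these shifts was not tested. The groups share replicate numbers, but the labels do not say whether these are pairs. The main fit had no replicate block because the study does not name one. Same-numbered libraries deviated together only weakly at the gene level (correlations 0.1112, 0.0109 and 0.0164). With the replicate block, edgeR gave 0 genes (2163 at an unadjusted p below 0.05), 0 members (6 unadjusted), 0 transcripts (1760 unadjusted) and -1.59 for NUP50 (adjusted p 0.126). With 3 libraries a group, an adjusted p near the threshold moves with each library.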
